A study of Sus scrofa with 30 samples.

Results

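The genes described here are 10 genes of antigen presentation by the pig major histocompatibility complex (MHC), called SLA in this species, in the mammary gland of sows. Class I is represented by 5 of them (B2M, SLA-1, SLA-2, SLA-3 and TAP1) and class II by the other 5 (CD74, SLA-DRA, SLA-DRB1, SLA-DQA1 and SLA-DQB1). They were taken by name, all 10 had values, and they held 32 of the 61773 transcripts and 10 of the 26019 genes and assembled loci of the expression table. Mammary parenchyma was taken from multiparous Danish Landrace × Yorkshire half-sibling sows at 5 stages, with 6 samples deposited per stage. The stages were mid-gestation (MG, day 70 of gestation), late gestation (LG, day 110 of gestation), early lactation (EL, day 2 postpartum), peak lactation (PL, day 10 postpartum) and, at day 2 from weaning, early involution (W2). The labels name no treatment, and each sow gave tissue at 1 stage.

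Only 3 samples per stage were counted as sows (MG samples 1, 3 and 6, LG samples 1, 3 and 4, EL samples 3, 4 and 6, PL samples 2, 3 and 6, W2 samples 2, 3 and 6), and values are given in that order throughout. The other 3 samples of each stage were near copies of the mean of those 3: their mean differed from it by a median of 0.688 to 0.741% per transcript, and pairs among them differed by at most 1.80 to 1.85%, against 19.6 to 59.8% between pairs of counted samples. The labels also conflict. Samples titled EL carry a stage tag of mid-gestation and samples titled MG carry one of early lactation, while W2 is tagged as an early dry period, and the titles were followed. The milk protein list (caseins, LALBA, WAP, PAEP and SAA3) took 20.1 to 25.7% of all units in the EL sows and 11.3 to 16.5% in the MG sows. Epithelial keratins and EPCAM were present in every sow, with a summed level of the luminal epithelium list of 837 to 1992 units. Values are the authors' FPKM, which are normalised for transcript length and whose sum per sample was nearly constant (997480 to 1002643), and they are called units below. The number of reads behind a value is unknown from the table.

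Class I molecules are built from a polymorphic heavy chain (in the pig the classical ones are SLA-1, SLA-2 and SLA-3) and the invariant light chain beta-2-microglobulin (B2M). They are loaded in the endoplasmic reticulum with peptides from cytosolic proteins, which the proteasome makes and the transporter TAP carries across the membrane, and nearly all nucleated cells show them to CD8 T cells. Class II molecules are pairs of an alpha and a beta chain (SLA-DRA with SLA-DRB1, SLA-DQA1 with SLA-DQB1). They travel with the invariant chain CD74 to endosomes, where peptides from engulfed proteins replace its remnant, and they are shown to CD4 T cells mainly by macrophages, dendritic cells and B cells, though mammary epithelium can also make them.

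Class II genes were lowest at peak lactation and were back near the gestation level 2 days after weaning. SLA-DRA, SLA-DQA1, SLA-DQB1 and the invariant chain CD74 each fell between gestation and PL and rose from PL to W2, and their order was the same in all 4 genes: MG, W2, LG, EL and PL. The PL mean was 38.6% of the MG mean for SLA-DRA, 35.9% for SLA-DQA1, 37.8% for SLA-DQB1 and 46.8% for CD74. Over the 5 stages, the F test of limma with Benjamini-Hochberg adjustment over all 26019 genes called these 4 of the 10 members at an adjusted p below 0.05, against 18.3% of all genes. No class I gene was called, and neither was SLA-DRB1.

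**Figure D1:**
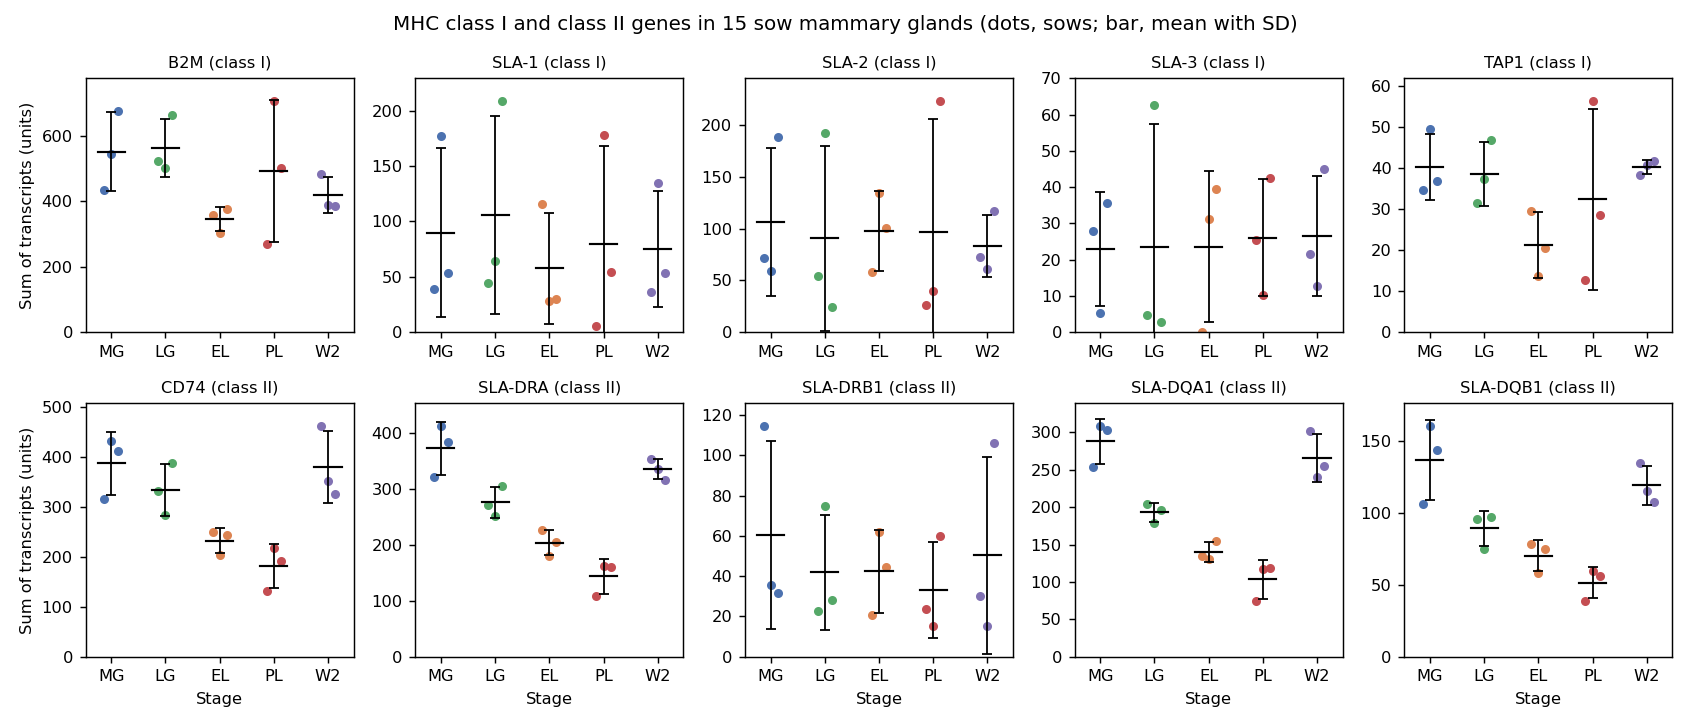
Level of each of the 10 genes (sum of its transcripts, in units, y axis) by stage (x axis) in the 15 counted sows, with dots for sows and bars for the mean with SD (n = 3). CD74, SLA-DRA, SLA-DQA1 and SLA-DQB1 are tight within stages and lowest at PL, whereas SLA-1, SLA-2, SLA-3 and SLA-DRB1 are spread widely within every stage.

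SLA-DRA encodes the alpha chain of the DR molecule, which varies little between animals. It measured 321, 412 and 384 units in the 3 MG sows, 271, 251 and 305 in LG, 226, 180 and 206 in EL, 108, 162 and 161 in PL, and 354, 336 and 317 in W2. Every PL sow lay below every sow of the other 4 stages, and the W2 sows overlapped with the MG sows. The means were 372 ± 46.7, 276 ± 27.2, 204 ± 22.8, 144 ± 30.8 and 335 ± 18.5 units (SD, n = 3 each) in that order. PL was lower than MG by a log2 fold change of -1.39 (SE 0.17, adjusted p = 0.00029, limma), and W2 was higher than PL by 1.24 (SE 0.17, adjusted p = 0.00040).

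SLA-DQA1, the alpha chain of the DQ molecule, changed the most of the 4 called genes from MG to PL and from PL to W2. Its level was 253, 308 and 303 units in MG, 204, 179 and 197 in LG, 134, 130 and 155 in EL, 73.9, 118 and 118 in PL, and 302, 240 and 254 in W2. The PL sows were again all below the others, and the EL sows were all below those of MG, LG and W2. The difference of PL from MG was -1.50 on the log2 scale (SE 0.18, adjusted p = 0.00028, limma) and that of W2 from PL was 1.38 (SE 0.18, adjusted p = 0.00032). SLA-DQA1 was also the only member called between W2 and EL, at a log2 fold change of 0.92 (SE 0.18, adjusted p = 0.0449, limma), a call that was lost with median ratio scaling (0.51, adjusted p = 0.11) and without any 1 of the MG, LG, EL or W2 sows. Without PL sample 2, 5 members were called between W2 and EL (SLA-DQA1, SLA-DRA, SLA-DQB1, CD74 and TAP1), and 3 between EL and MG (SLA-DRA, SLA-DQA1 and SLA-DQB1).

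SLA-DQB1, which pairs with SLA-DQA1, followed the same order at a lower level. It measured 106, 161 and 144 units in MG, 95.9, 75.2 and 97.1 in LG, 78.3, 58.1 and 75.0 in EL, 39.0, 59.7 and 56.3 in PL, and 135, 116 and 108 in W2. Here the highest PL sow, at 59.7 units, lay above the lowest EL sow, at 58.1. The log2 fold change was -1.40 from MG to PL (SE 0.21, adjusted p = 0.00088, limma) and 1.22 from PL to W2 (SE 0.21, adjusted p = 0.0014). The 2 chains of the DQ molecule kept a narrow ratio, with SLA-DQA1 1.71 to 2.38 times SLA-DQB1 over the 15 sows.

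CD74 encodes the invariant chain, the chaperone of class II. It was at 316, 433 and 413 units in MG, 332, 284 and 388 in LG, 250, 203 and 244 in EL, 132, 218 and 193 in PL, and 462, 353 and 325 in W2. The PL and EL sows overlapped, and all 3 PL sows were below every sow of MG, LG and W2. PL was lower than MG by -1.11 (SE 0.21, adjusted p = 0.0031, limma, log2 scale), and W2 was higher than PL by 1.08 (SE 0.21, adjusted p = 0.0027). SLA-DRA was 0.745 to 1.02 times CD74 in every sow, while the highest sow was 3.81 times the lowest for SLA-DRA and 3.49 times for CD74.

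From late gestation to PL, the same 4 genes fell by 0.80 (SLA-DQB1, adjusted p = 0.0248) to 0.96 (SLA-DRA, adjusted p = 0.0035) on the log2 scale by the limma test, in which 14.7% of all genes were called. With LG and PL fitted alone none of the 4 passed, without LG sample 4 only SLA-DRA and SLA-DQA1 did, and SLA-DQB1 did not without LG sample 1 or without PL sample 2. In the comparisons that were called widely across the transcriptome, PL vs MG and W2 vs PL, 25.2% and 32.8% of all genes passed, and 4 of the 10 members passed in each. Neighbours in the stage order of the 4 class II genes did not pass: no member was called between W2 and MG (0.0115% of all genes called), between W2 and LG (0.0346%), between EL and LG (0.0154%) or between PL and EL (4.62%).

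No member was called between LG and MG (0.0115% of all genes) or EL and MG (0.0269%) either, and 1 was called between W2 and EL (0.553%). By the unadjusted limma p below 0.05, the number of the 10 members was 3 for LG vs MG, 6 for EL vs MG, 0 for W2 vs MG, 4 for EL vs LG, 1 for W2 vs LG and 3 for PL vs EL. In EL vs MG the 6 were 4 class II and 2 class I genes. Of all 26019 genes, the numbers at that p were 1154 for LG vs MG, 4139 for EL vs MG and 804 for W2 vs MG. They were 1609 for EL vs LG, 1968 for W2 vs LG and 4947 for PL vs EL. In W2 vs EL, 5 members had such a p, beside 6532 of all genes.

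**Figure D2:**
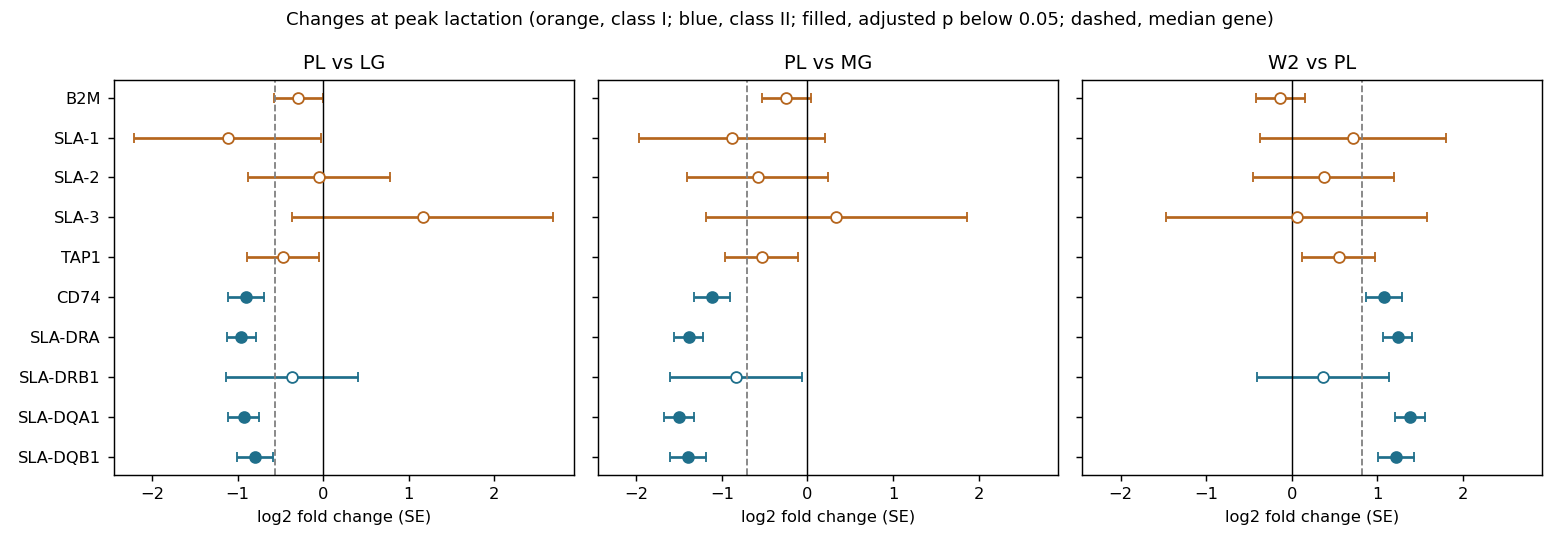
Log2 fold change (x axis, with its SE) of the 10 genes (y axis) for PL vs LG, PL vs MG and W2 vs PL, with filled symbols for an adjusted p below 0.05 and a dashed line at the median of the 7860 genes with a mean of at least 10 units. The 4 called class II genes lie beyond the dashed line in each panel, while B2M does not. With wide SEs and uncalled, SLA-1 lies beyond it in PL vs LG (-1.12) and PL vs MG (-0.88), and SLA-DRB1 in PL vs MG (-0.84).

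The whole transcriptome moved in the same direction as the class II genes, and the size of this shift stands beside them. Of all genes called, 5983 were lower and 580 higher in PL than in MG, and 7901 were higher and 644 lower in W2 than in PL. The median gene with a mean of at least 10 units changed by -0.70 from MG to PL, by -0.57 from LG to PL and by 0.82 from PL to W2 (log2). At the same time the milk protein list took 27.4 to 43.9% of all units in PL sows and 10.5 to 13.9% in W2 sows. With the milk list left out, the 4 called class II genes were still called in PL vs MG by limma. Their changes ran from -0.73 (CD74, adjusted p = 0.013) to -1.12 (SLA-DQA1, adjusted p = 0.00038), against -1.11 and -1.50 with it. The 4 also stayed called in W2 vs PL, at 0.66 (CD74) to 0.97 (SLA-DQA1). In PL vs LG 3 of them did, and SLA-DQB1 did not (-0.49, adjusted p = 0.083). Whether the milk transcripts cause the fall was not tested. Dividing each sample by its median ratio to the mean profile, which moved the median gene by 0.64 in PL vs MG and by -0.72 in W2 vs PL, left SLA-DRA (-0.73, adjusted p = 0.00049), SLA-DQA1 (-0.84, adjusted p = 0.0014) and SLA-DQB1 (-0.74, adjusted p = 0.0069) lower in PL than in MG by limma, and CD74 at -0.45 (adjusted p = 0.084). On that scale SLA-DRA (0.50, adjusted p = 0.0036) and SLA-DQA1 (0.64, adjusted p = 0.0059) remained higher in W2 than in PL, whereas SLA-DQB1 (0.48, adjusted p = 0.051) and CD74 (0.34, adjusted p = 0.18) did not pass, and in PL vs LG only SLA-DRA did (-0.45, adjusted p = 0.0090).

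SLA-DRB1, the polymorphic beta chain of DR, also had its lowest mean at PL but was not called. Its means were 60.7 (MG), 42.0 (LG), 42.4 (EL), 33.1 (PL) and 50.4 (W2) units. PL differed from MG by -0.84 (SE 0.77) on the log2 scale. Single sows measured 114, 35.7 and 31.8 units in MG, 22.8, 74.8 and 28.3 in LG, 20.7, 61.8 and 44.6 in EL, 24.0, 15.4 and 60.0 in PL, and 30.0, 15.1 and 106 in W2. Every stage thus held both low and high sows, the stages overlapped, and the F test gave an adjusted p of 0.910 (limma). SLA-DRB1 was 0.0448 to 0.373 times SLA-DRA, its partner.

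The transcripts of SLA-DRB1 divided the sows in a way that crossed the stages. The reference transcript NM_001113695.1 was listed at 0 in 4 sows (MG sample 6, LG sample 1, W2 samples 2 and 3) and ranged from 14.2 to 113 units in the other 11. In those 4 sows the second annotated transcript, the noncoding XR_002345563.1, was at 15.1 to 31.8 units, against 0.051 to 7.54 in the others. The same 4 sows held 4.29 to 46.3 units of the SLA-DQA1 transcript XM_005665844.3, which was at 0 to 7.57 in the other sows. That transcript took 2.11 to 15.3% of the SLA-DQA1 units in the 4 sows and 0 to 4.23% in the others. The sum of SLA-DQA1 did not follow this division, at 204 to 303 units in the 4 sows and 73.9 to 308 in the others. Its 2 main transcripts NM_001114062.2 and NM_001130224.1 each took 39.8 to 60.1% of its units in 14 sows. In W2 sample 6 the first took 96.3% and the second 3.46%, while the sum of the gene, 254 units, lay between those of the other W2 sows.

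In the same region of chromosome 7, beyond the DQ genes, the annotation places LOC106504372, which has DRB1 among its older symbols and was looked at after the values of SLA-DRB1 were seen. It measured 18.3 to 24.4 units in MG, 1.45 to 15.4 in LG, 10.1 to 14.0 in EL, 4.71 to 10.2 in PL and 17.1 to 20.1 in W2. With it added, SLA-DRB1 still ranged from 25.6 to 133 units over the sows. The sequences of LOC106504372 and SLA-DRB1 were not compared. If they are alike, reads could be divided between the loci, so single values of SLA-DRB1 are uncertain.

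At class I the sows of a stage differed widely. The heavy chain genes SLA-1, SLA-2 and SLA-3, which encode the peptide-binding chains of classical class I, were not called in any of the 10 comparisons by limma, and none of the 5 class I genes was. The pooled SD within stages on the log2 scale was 1.48 for SLA-1, 1.12 for SLA-2 and 2.07 for SLA-3, against 0.36 for the median of 7860 genes. Only 4.97%, 9.06% and 2.29% of these genes had a larger one. SLA-DRB1, at 1.04, was next, with 10.1% above it, whereas SLA-DRA, at 0.20, was below 87.0% of the genes.

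SLA-1 measured 38.9, 177 and 53.5 units in MG, 44.7, 64.6 and 208 in LG, 116, 27.9 and 29.5 in EL, 5.69, 178 and 54.1 in PL, and 36.2, 134 and 53.5 in W2. Each stage held 1 sow in which SLA-1 was the highest of the 3 heavy chain genes, and these 5 sows ranged from 116 to 208 units against 5.69 to 64.6 in the other 10. The F test gave an adjusted p of 0.883 (limma). SLA-2 measured 71.5, 59.3 and 189 units in MG, 54.7, 193 and 24.7 in LG, 57.8, 135 and 101 in EL, 26.4, 40.0 and 223 in PL, and 73.0, 60.7 and 118 in W2. It was the highest of the 3 heavy chain genes in the 10 sows in which SLA-1 was not, and its adjusted p over stages was 0.942.

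SLA-3 had the lowest mean of the 3 at every stage, at 27.9, 5.25 and 35.7 units in MG, 4.83, 62.7 and 2.66 in LG, 0.038, 31.3 and 39.5 in EL, 25.5, 10.2 and 42.6 in PL, and 21.6, 12.8 and 45.1 in W2. Its adjusted p over stages was 0.872. The reference transcript NM_001097427.1 was listed at 0 in the 5 sows in which SLA-1 was highest (MG sample 3, LG sample 4, EL sample 3, PL sample 3 and W2 sample 3), and was at 0.863 to 33.9 units in the other 10. In those 5 sows the SLA-1 transcript XM_021098437.1 measured 113 to 185 units, against 3.60 to 62.2 elsewhere. SLA-1 made up 64.6 to 88.4% of the 3 genes' units in these sows and 9.89 to 42.9% in the others, a division that ran through every stage.

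**Figure D3:**
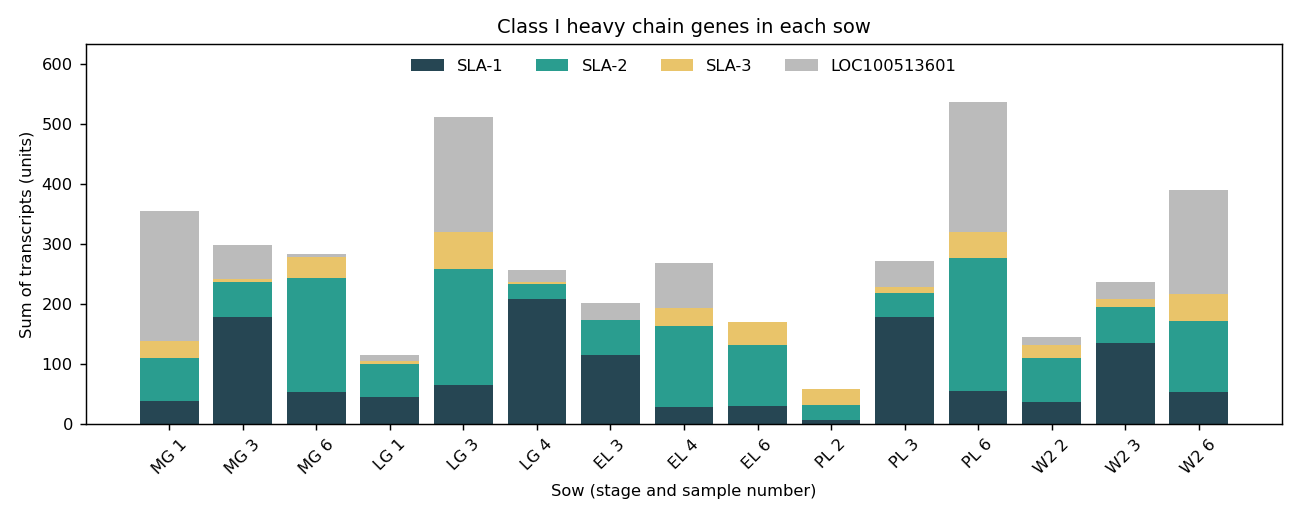
Stacked level (units, y axis) of SLA-1, SLA-2, SLA-3 and the neighbouring LOC100513601 in each of the 15 sows (x axis, single samples without error bars). SLA-1 is the largest of the 3 named genes in 1 sow of every stage, and PL sample 2 has the lowest stack, at 57.6 units.

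The 3 heavy chain genes lie close together on chromosome 7 of Sscrofa11.1: SLA-1 spans chr7:22824137-22920154, SLA-2 chr7:22916747-22959405 and SLA-3 chr7:22938211-22942735, which lies within the span of SLA-2. Their sequences are alike and the spans overlap, so reads may be divided differently between them from sow to sow. How far this sets the per-sow differences was not tested. LOC100513601 (chr7:22888616-22920154), which lies inside the span of SLA-1 and was looked at after the values were seen, was listed at 0 in EL sample 6 and PL sample 2, and reached 217 units in MG sample 1 and in PL sample 6. The sum of SLA-1, SLA-2 and SLA-3 ranged from 57.6 to 320 units with a pooled SD of 0.76 on the log2 scale. With LOC100513601 added it ranged from 57.6 to 537 units.

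B2M, the light chain common to all class I molecules, was the most abundant of the 10 genes at every stage. It measured 434, 544 and 674 units in MG, 523, 500 and 663 in LG, 356, 303 and 376 in EL, 269, 704 and 500 in PL, and 481, 387 and 385 in W2. The PL sows held both the lowest and the highest value of the study. The EL sows were all below those of MG, LG and W2, and the W2 sows were all below those of LG. The adjusted p over stages was 0.307 (limma). PL differed from MG by -0.25 (SE 0.29) and W2 from PL by -0.13 (SE 0.29) on the log2 scale. With median ratio scaling the difference of PL from MG turned to 0.41 (adjusted p = 0.24), and B2M was lower in W2 than in PL by -0.88 (adjusted p = 0.0153, limma), so both the direction of the first and the call of the second depend on the scaling. Quantile normalisation also called B2M in W2 vs PL. The sum rested on the single transcript XM_021096362.1, which held 97.3 to 99.0% of the gene in every sow. A second gene model annotated as B2M nearby on chromosome 1 was not analysed here.

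TAP1, a subunit of the peptide transporter, was at 34.6, 49.5 and 36.9 units in MG, 31.4, 37.3 and 46.9 in LG, 29.7, 13.7 and 20.4 in EL, 12.6, 56.3 and 28.5 in PL, and 38.3, 40.8 and 41.8 in W2. The PL sows included both the lowest and the highest value of the study. The adjusted p over stages was 0.305 (limma). Without PL sample 3, TAP1 was called in W2 vs PL. TAP1 lies beside the DQ genes, at chr7:25062772-25071989, near SLA-DRA (chr7:24825037-24830650), SLA-DRB1 (chr7:24901386-24914016), SLA-DQA1 (chr7:24953472-24959313) and SLA-DQB1 (chr7:24969034-24977238).

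Ratios within a library do not depend on how libraries are scaled. The summed class II chains were 1.28 to 1.83 times B2M in MG, 0.945 to 1.16 in LG, 1.28 to 1.42 in EL, 0.505 to 0.910 in PL and 1.70 to 2.04 in W2. Every PL sow was below every sow of the other stages, every W2 sow was above every LG and EL sow, and the W2 and MG sows overlapped. The 3 heavy chains together were 0.199 to 0.641 times B2M, and the stages overlapped except that the EL sows were all above those of MG. The class II chains were 1.62 to 2.52 times CD74, with the MG sows all above those of LG and PL. In total the 10 genes took 0.0718% (PL sample 2) to 0.227% (MG sample 6) of all units.

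**Figure D4:**
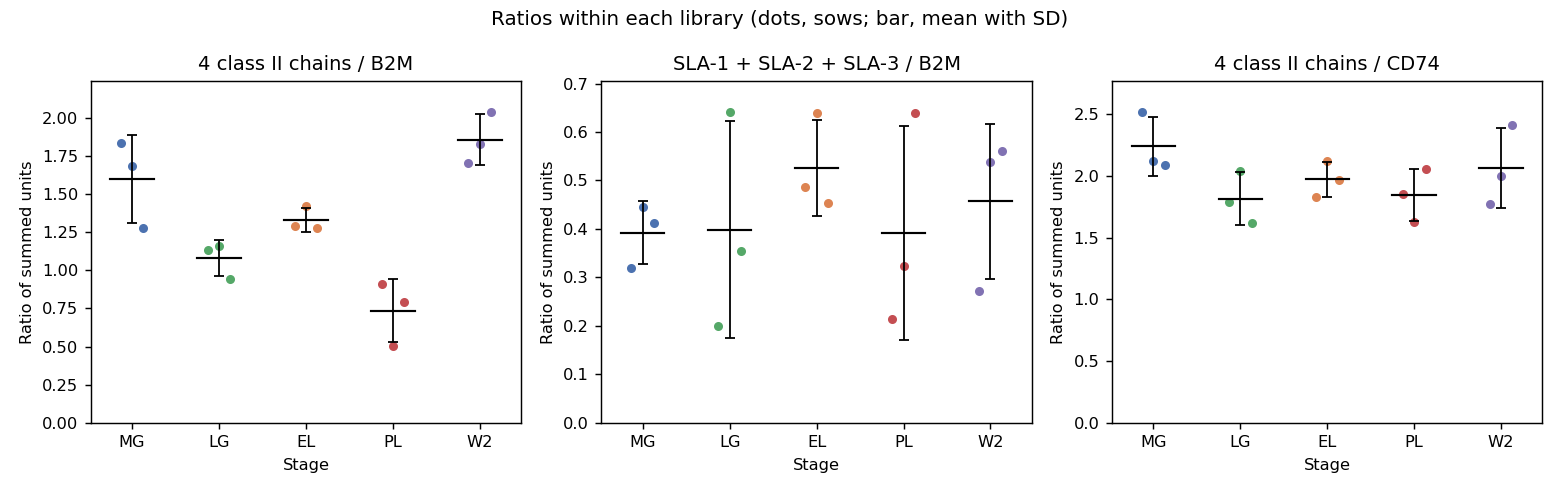
Ratios within each of the 15 libraries (y axis, ratio of summed units) by stage (x axis), with dots for sows and bars for the mean with SD (n = 3). The class II chains per B2M are lowest in the 3 PL sows, at 0.505 to 0.910, while heavy chains per B2M in the PL sows overlap with those of every other stage.

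At the level of single transcripts, the F test called 4 of the 32 member transcripts, against 2.6% of all 61773. These were NM_001113706.1 of SLA-DRA (adjusted p = 0.0044, limma), NM_001113694.1 of SLA-DQB1 (adjusted p = 0.0176), NM_001114062.2 of SLA-DQA1 (adjusted p = 0.0265) and XM_021080282.1 of CD74 (adjusted p = 0.0480). Each had the highest mean among the transcripts of a gene that was called. The other main transcript of SLA-DQA1, NM_001130224.1, was not called (adjusted p = 0.616, limma) and was at 8.80 units in W2 sample 6. XM_021080282.1 held 62.2 to 83.5% of CD74 and NM_001113706.1 held 95.9 to 99.7% of SLA-DRA.

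Other genes of the pathway were examined in lists. Of 15 measured genes for class II processing and control, 3 were lower in PL than in MG and 5 were higher in W2 than in PL, shares near the 25.2% and 32.8% of all genes. The medians of the list were -0.68 and 0.65 (log2), against -0.70 and 0.82 for the median gene. SLA-DMA and SLA-DMB, the chains of the peptide-exchange factor DM, fell by 0.75 and 1.23 from MG to PL (SE 0.17 and 0.25, adjusted p = 0.0087 and 0.0050, limma) and rose by 0.79 and 1.14 from PL to W2 (adjusted p = 0.0051 and 0.0056). SLA-DOA, a chain of the factor that restrains DM, fell by 1.19 (SE 0.26, adjusted p = 0.0070) and rose by 1.09 (adjusted p = 0.0080). CIITA, the transactivator that class II transcription depends on, was low, at 1.32 to 4.07 units, and was not called, with log2 fold changes of -0.48 (SE 0.27, adjusted p = 0.21) from MG to PL and 0.33 (SE 0.27, adjusted p = 0.37) from PL to W2.

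Of 15 measured genes for class I processing, 4 were lower in PL than in MG and the same 4 (PSME1, PSME2, PSMB10 and TAPBP) were higher in W2 than in PL, while the medians of the list were near 0, at -0.09 and -0.17. The count was near the share of all genes in PL vs MG (25.2%) and below it in W2 vs PL (32.8%). The same shares apply to the lists that follow. PSME1 and PSME2 encode the subunits of the PA28 activator of the proteasome. PSME1 had a mean of 899 ± 51.0 units in MG, 171 ± 55.4 in PL and 977 ± 78.9 in W2 (SD, n = 3). Its log2 fold change was -2.45 from MG to PL (SE 0.24, adjusted p = 0.00010, limma) and 2.57 from PL to W2 (SE 0.24, adjusted p = 6.0e-05). PSME2 changed by -1.39 and 1.30 and PSMB10, a catalytic subunit of the immunoproteasome, by -1.01 and 1.02. NLRC5, the class I transactivator, was at 1.95 to 4.88 units and was not called (0.10 from MG to PL, adjusted p = 0.82, and -0.17 from PL to W2, adjusted p = 0.63). Of 7 measured other class I or class I-like heavy chains, 1 gene, FCGRT, was lower in PL than in MG and higher in W2 than in PL. FCGRT encodes the heavy chain of the neonatal Fc receptor, which binds IgG. Of 9 measured genes of the interferon-gamma signal, 1, IRF1, was called in each of these comparisons (-1.03 and 1.06). Of 5 costimulation genes, 2 (CD80 and CD86) were lower in PL than in MG and 0 were called from PL to W2 by limma (1 at an unadjusted p below 0.05).

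**Figure D5:**
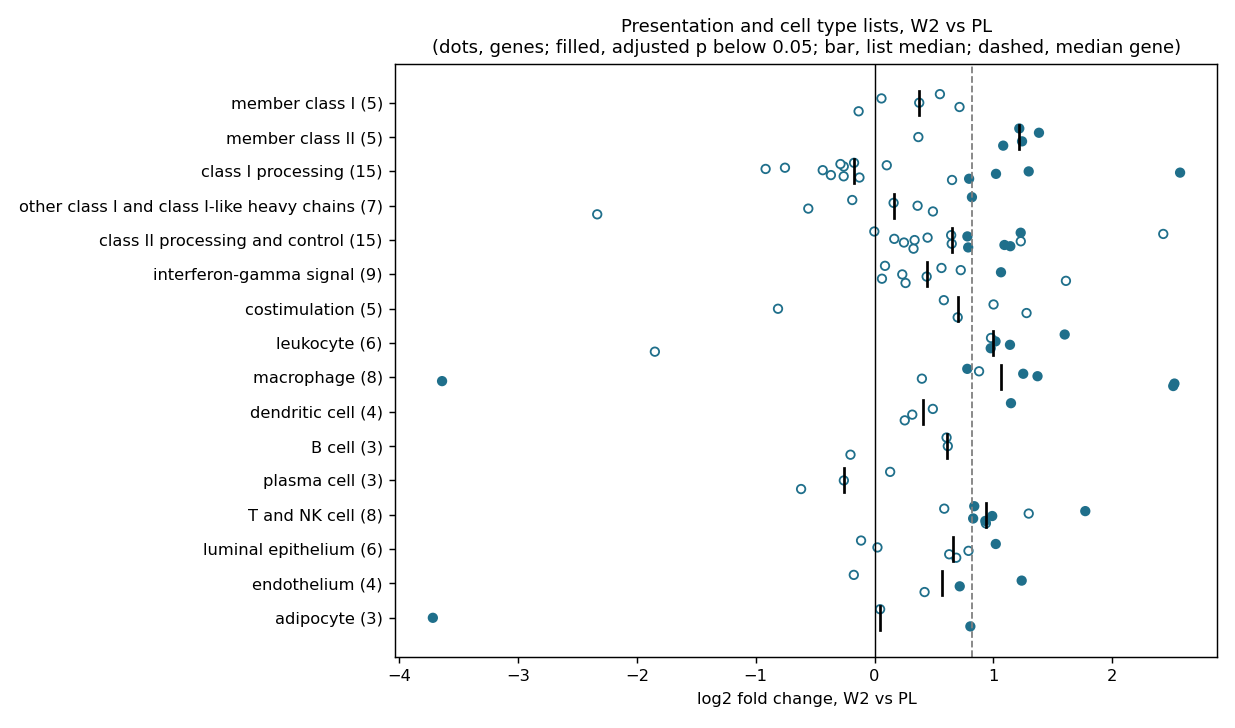
Log2 fold change from PL to W2 (x axis) of each gene in the member, pathway and cell type lists (y axis, number of measured genes in brackets), with filled dots for an adjusted p below 0.05, bars for list medians and a dashed line at the median gene. The class II members lie to the right of the dashed line except SLA-DRB1. The leukocyte, macrophage and T and NK cell medians, at 1.00, 1.07 and 0.93, also lie to its right.

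The tissue is bulk, so fewer cells of a type and less RNA per cell cannot be told apart. Most markers of macrophages, which carry class II, moved with the class II genes, and so did most leukocyte and T and NK cell markers. Only 3 B cell and 4 dendritic cell markers were measured, at low levels, so their counts of called genes say little. Of all genes, 25.2% were called in PL vs MG and 32.8% in W2 vs PL. Of 8 measured macrophage markers, 5 were lower and 1 higher in PL than in MG (median -1.37), and 5 were higher and 1 lower in W2 than in PL (median 1.07). Their summed level was 472 to 534 units in MG, 325 to 507 in LG, 224 to 375 in EL, 146 to 498 in PL and 396 to 482 in W2. C1QA and C1QB, subunits of complement C1q made largely by macrophages, changed by -1.54 and -1.52 from MG to PL (SE 0.24 and 0.28, adjusted p = 0.0012 and 0.0030, limma) and by 1.37 and 1.25 from PL to W2. CSF1R, the receptor for macrophage growth factors, changed by -2.29 and 2.52. CD14, the coreceptor for lipopolysaccharide, went the opposite way, with 3.52 and -3.64. It measured 9.23, 234 and 298 units in the 3 PL sows and at most 9.92 units (MG sample 3) at other stages. The summed macrophage level above includes CD14. The part of these markers in the class II change was not tested.

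Leukocyte markers followed too: 5 of 6 were lower in PL than in MG (median -1.23) and 4 of 6 higher in W2 than in PL (median 1.00), among them CD53 (-1.26 and 0.98) and RAC2 (-1.26 and 1.60). The summed level was 59.3 to 90.5 units in PL and 117 to 191 at the other stages. PTPRC, the common leukocyte antigen CD45, was not called, varied from 0 in EL sample 4 to 13.7 units in MG sample 6, and had a log2 fold change of 0.50 (SE 1.49) from MG to PL. Of 8 T and NK cell markers, 4 were lower in PL than in MG (median -1.09) and 5 were higher in W2 than in PL (median 0.93). Of 4 measured dendritic cell markers, 1 was called in each comparison, ITGAX (-1.13 and 1.15). Of 3 measured B cell markers 1, CD79B, was lower in PL than in MG and 0 were called from PL to W2 by limma (0 at an unadjusted p below 0.05), and 0 of the 3 plasma cell markers were called in either comparison (0 at an unadjusted p below 0.05). Summed B cell markers were at 1.77 to 9.89 units and summed dendritic cell markers at 1.39 to 6.57 units over all sows, whereas the plasma cell markers were at 386 to 2887 units. The 20 list genes without a value, CD68 among them, were not analysed here. Of 6 luminal epithelium markers, 0 were called from MG to PL by limma (1 at an unadjusted p below 0.05) and 1, CDH1, was higher in W2 than in PL. Endothelial markers were called for 1 of 4 measured from MG to PL and 2 of 4 from PL to W2, and 2 of 3 measured adipocyte markers were called in both, FABP4 with the class II direction and LEP against it.

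Likeness to the summed class chains over the 15 sows was ranked among the 5740 reference genes outside the members with a mean of at least 10 units. For the summed class II chains the most alike were RPA2 (Pearson r = 0.978), PIGP (0.972), GMPR2 (0.968), LOC100517116 (0.967) and CXXC1 (0.967). For the summed class I heavy chains they were RAB3GAP2 (0.861), FGFR3 (0.835), IL10RB (0.830), IFNAR1 (0.825) and TSPAN3 (0.823). The samples share a stage and a total of units, so these are descriptions of likeness across 15 sows.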

How the data were processed

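RNA-seq of mammary tissue from 30 sows was deposited as 1 table of transcripts. Per the labels, reads were checked with FastQC, trimmed with Trimmomatic and aligned with HISAT2 to Sscrofa11.1. The study's methods then quantified transcripts as FPKM, and the deposited FPKM columns have nearly the same sum in each sample (997480 to 1002643). The methods also mention a correction for unwanted variation by RUVs. Whether it was applied to the deposited values is not given in the sources used here.

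Transcripts were given gene symbols from the RefSeq annotation of Sscrofa11.1, and summed per gene. The test was limma 3.58.1 (R 4.3.3, trend) on log2(sum + 0.5) of all 26019 genes and loci in the 15 counted samples, with all 5 stages in 1 fit and Benjamini-Hochberg adjustment over all genes within a comparison. A gene was called at an adjusted p below 0.05. Fold changes are on the log2(value + 0.5) scale and understate changes of low genes. The paper lists the reads of each library, but FPKM do not give the reads behind a single value. Precision is therefore given by the spread between sows. With 3 sows against 3, an exact permutation test cannot go below p = 0.1. The test was checked on simulated data. The members and lists were chosen with earlier results of these data known. All members were named, with at most 6 called genes of a list by F test, in addition to CIITA, NLRC5 and PTPRC and the genes most like each class. Genes named outside this rule (LOC106504372, LOC100513601, TAPBP and single called genes of lists) were chosen after their values were seen.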

Additional observations from a re-analysis of the deposited data

How the results depend on the processing

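The 13 member fold changes that were called kept their direction under all 338 alternative values tried, and 284 of these also kept the call. Many of these values could not change direction. The fold minimum, the filter on the mean and the fit of 2 stages alone leave the estimate as it was. So does leaving out a sow of a stage outside the comparison. Leaving out 1 sow at a time gave 4 to 5 members called over the stages, 4 to 4 for PL vs MG, 4 to 5 for W2 vs PL, 2 to 4 for PL vs LG (2 without LG sample 4), 0 to 5 for W2 vs EL (5 without PL sample 2), 0 to 3 for EL vs MG (3 without PL sample 2), 0 to 1 for PL vs EL (B2M without PL sample 2), 0 to 0 for EL vs LG, for W2 vs LG, for LG vs MG and for W2 vs MG, and 2 to 4 transcripts. Median ratio scaling called 1 member in PL vs LG, 0 in W2 vs EL and 1 transcript. A fold of at least 4 (2 on the log2 scale) left 0 members in PL vs MG, PL vs LG, W2 vs EL and W2 vs PL. Fitting the 2 stages alone left 0 in PL vs LG and 0 in W2 vs EL. That fit also left 3 in PL vs MG and 3 in W2 vs PL, since CD74 was no longer called in either. Taking the top transcript per gene left 1 in PL vs LG and 0 in W2 vs EL. Quantile normalisation left 1 transcript and leaving out the milk list left 2. Counting all 6 deposited samples, with the near copies as sows, called 3 in LG vs MG, 6 in EL vs MG, 6 in EL vs LG, 4 in W2 vs LG, 6 in PL vs EL, 5 in W2 vs EL and 22 transcripts. The cause of these differences was not tested. Sample numbers name different sows and pair none of them. With the number as a replicate block, 0 members were called in PL vs LG, 0 in W2 vs EL and 0 transcripts. The unknown number of reads behind each value and the 3 sows per stage limit small differences, above all for SLA-1, SLA-2, SLA-3 and SLA-DRB1.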
